A study of Mus musculus with 6 samples.

Results

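Macrophages of the uninjured mouse kidney that carried C1q transcripts and no detected Ccr2 transcript were described from single-cell RNA libraries. They made up 2787 of 8545 filtered cells in the 3 control libraries, and of 12596 filtered cells in all 6 libraries. A barcode was taken when it held at least 500 gene UMIs (unique molecular identifiers, each counted as 1 captured RNA molecule), 200 or more genes, mitochondrial UMIs up to 15% and 0.3% or more of Malat1, a nuclear RNA that marks intact nuclei. It also had C1qa, C1qb and C1qc together at 0.3% or more of its gene UMIs, no Ccr2 UMI, fewer than 2 UMIs of Cxcl9 and Cxcl10, and none of Cd3e or Cd79a, which mark T cells and B cells. The cells were thus chosen by measured levels of these genes, and those levels are given as a description with no test. The cells were set against 1424 control cells that met the same rule except that they had at least 1 Ccr2 UMI, and, more briefly, 1325 cells of rhabdomyolysis kidneys that met the whole rule.

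The study profiled live CD45-positive cells, that is leukocytes, sorted from digested kidneys of C57BL/6J mice aged 8 weeks. There were 3 libraries from mice with acute kidney injury after rhabdomyolysis, the breakdown of skeletal muscle that releases myoglobin into the blood, and 3 from control mice. No allele or drug is named for either group, and the labels used here give neither the agent that injured the muscle nor the time after it. Nothing in them tells if each library is a different mouse, and every p-value below therefore refers to variation among libraries, part of which may be technical.

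Resident macrophages settle in the kidney early in life, lie between the tubules and capillaries, and take up particles and dying cells. They depend on the growth factor receptor Csf1r, and in mice they are recognised by F4/80, the protein of Adgre1, by the fractalkine receptor Cx3cr1, and by C1q, the first component of the complement cascade. Ccr2 is the receptor for Ccl2 by which monocytes leave the bone marrow and enter tissue, and it is lost as these cells mature into macrophages. Lack of Ccr2 is therefore often used to set resident cells apart from recent arrivals, although a cell in which no Ccr2 molecule was captured can still have expressed it.

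The control libraries held 19427318, 17045151 and 16666253 gene UMIs over 32285 genes, against 10816727 to 22656666 in the rhabdomyolysis libraries. Ccr2-negative cells numbered 1206, 923 and 658 in control libraries 1, 2 and 3, or 34.7%, 32.6% and 29.3% of the filtered cells (exact 95% intervals 33.2 to 36.4%, 30.9 to 34.4% and 27.4 to 31.2%, for counting error only). Within the C1q gate they were 69.8%, 61.7% and 66.7% of the cells. Their median depth was 3420, 3374 and 3861 UMIs, against 4178, 4122 and 4986 UMIs in Ccr2-positive cells, and a version with all cells at 1 depth is given below. A single barcode was shared between 2 control libraries. The levels below are UMIs of all cells of a class in a library summed and expressed per 1000000 of their gene UMIs (CPM); since each molecule is counted once at its 3' end, they are not scaled by gene length. Libraries are always given in the order 1, 2 and 3.

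The marker genes fit the label of macrophages. Adgre1 (ENSMUSG00000004730) lay at 535, 526 and 439.7 CPM and Cx3cr1 (ENSMUSG00000052336) at 625, 647 and 542 CPM, and Csf1r at 691, 685 and 576 CPM. All 3 libraries were close to one another for each gene. When every cell of at least 1500 UMIs was thinned to 1500, which kept 2476 of the 2787 cells, Adgre1 was detected in 50.5, 53.1 and 48.3% of them and Cx3cr1 in 55.6, 56.9 and 51.7%. In T cells of the same libraries, thinned alike, Adgre1 was detected in 0.555, 0.932 and 0.739% and C1qa in 5.91, 5.83 and 4.93%. These T cells were chosen by Cd3e and by C1q under the threshold of the rule, which by itself limits their C1qa share. The part of free RNA in these shares was not tested. The lists of lymphocyte markers were low. The 8 T cell markers, Cd3e among them, which the rule required to be 0, summed to 72.1 to 104 CPM, against 3102 to 3333 CPM in the other filtered control cells, and the 7 NK cell markers to 6.90 to 117 CPM, against 1372 to 1517 CPM. The 6 B cell markers, with Cd79a at 0 by the rule, summed to 476 to 527 CPM, against 3719 to 6083 CPM. Nearly all of that sum was Ighm, at 412, 383 and 360.1 CPM, and Cd79b, at 108, 102 and 104 CPM. The dendritic cell lists were not low. The 7 markers of conventional dendritic cells 1 summed to 553 to 599 CPM, against 366 to 445 CPM in the other filtered cells, and most of it was Irf8 and Cadm1, with Xcr1 at 1.14, 3.14 and 2.64 CPM. The 9 of conventional dendritic cells 2 summed to 783 to 913 CPM, against 560.5 to 764 CPM, and most of it was Mgl2 and Sirpa, with Flt3 at 0.457, 1.25 and 0.377 CPM. The 5 of plasmacytoid dendritic cells summed to 731 to 860.1 CPM, against 476 to 583 CPM, and most of it was Bst2 and Tcf4, with Siglech at 12.3, 5.33 and 5.66 CPM. The platelet list was higher as well through Pf4, described below. The part of dendritic cells in the results was not tested. The 6 endothelial markers summed to 85.2 to 268 CPM, against 147 to 181 CPM in the other filtered cells, so blood vessel transcripts were present in the class and are given below beside each result they moved with.

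**Figure D1:**
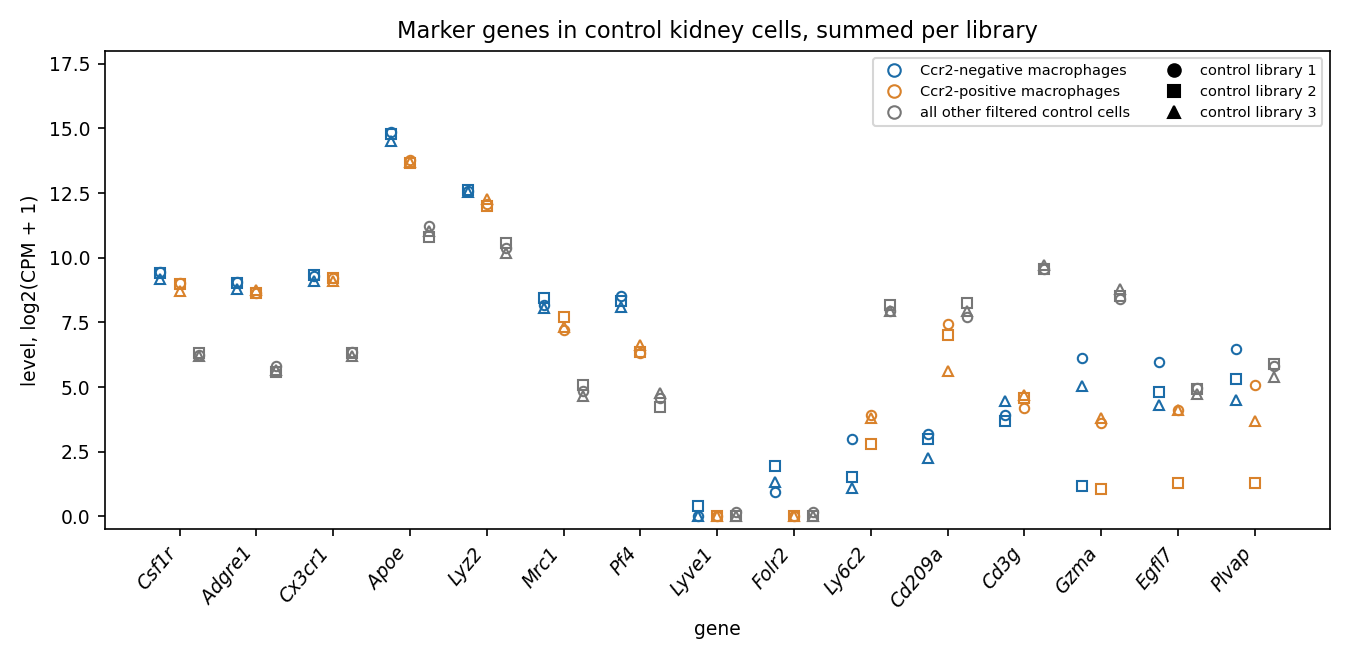
Levels of macrophage, monocyte, dendritic, T cell, NK cell and endothelial genes as log2(CPM + 1) in Ccr2-negative macrophages, Ccr2-positive macrophages and the other filtered cells of the control kidneys; each point is 1 library, and its shape gives the library. Adgre1, Csf1r and Apoe are high in both macrophage classes, Lyve1 and Folr2 lie at or near 0, and Cd3g and Gzma are high in the other cells.

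Cells near the C1q threshold were few and less macrophage-like by their other genes. Just inside it, at 0.3 to 0.4% C1q, there were 16, 15 and 13 cells with Adgre1 at 78.0, 97.4 and 161 CPM. Just outside it, at 0.2 to 0.3%, there were 11, 13 and 17 cells with 88.1, 93.0 and 37.1 CPM. Cells with 1% C1q or more, 1070, 779 and 561 of the Ccr2-negative class, had Adgre1 at 560.0, 559.6 and 468 CPM. In those cells the endothelial gene Plvap lay at 43.1, 27.8 and 0.415 CPM, against 574, 134 and 235 CPM in the cells between 0.3 and 1%. Each comparison below was therefore also run on cells with at least 1% C1q.

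Transcripts of antigen presentation, lipid transport and complement were among the most abundant, beside the noncoding RNA Malat1 (mean 43909 CPM), the actin-binding peptide gene Tmsb4x (16709 CPM) and the ferritin heavy chain gene Fth1 (8697 CPM). Cd74, the invariant chain that escorts MHC class II molecules, averaged 47837 ± 617 CPM (SD, n = 3), and H2-Eb1, H2-Ab1 and H2-Aa, the class II chains themselves, averaged 19576, 16535 and 14619.6 CPM. Apoe, an apolipoprotein that macrophages secrete, averaged 27115 ± 3500.4 CPM. Cst3, a secreted inhibitor of cathepsins, averaged 10494 CPM, and Lyz2, the lysozyme of myeloid cells, 6154 CPM. C1qa, C1qb and C1qc, on which the cells were chosen, averaged 7944, 7272 and 4618 CPM. Jun, an immediate early gene, averaged 3804 CPM, and Ctss, a cathepsin that trims Cd74, 3386 CPM. Of the mannose receptor and perivascular-type genes, Mrc1 lay at 288, 349 and 265 CPM and Pf4 at 365, 317 and 272 CPM, whereas Lyve1 was at 0 in 2 libraries and under 0.5 CPM in the other, and Folr2, Cd163 and Cbr2 did not exceed 6 CPM.

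Ccr2-negative cells were next compared with the Ccr2-positive cells of the same libraries, to find which transcripts accompany the lack of Ccr2. The class without Ccr2 was higher for secreted and scavenging genes, among them Apoe, Pf4, Igf1, Gas6, Vcam1 and Stab1, with log2 differences between 0.97 for Apoe and 2.36 for Vcam1. It was lower for genes of monocytes and dendritic cells, among them Cd209a, Napsa and the S100 genes S100a4 and S100a6. Of 9674 genes tested 671 were higher (6.94%) and 713 lower (7.37%), together 14.3%, with edgeR's quasi-likelihood test, the library as a block and a Benjamini-Hochberg adjusted p of 0.05 as threshold. The same test served every comparison across genes below, without the block where rhabdomyolysis was compared. The value after ± on a log2 difference is its standard error.

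The soluble factors were among the strongest differences. Pf4 (ENSMUSG00000029373), a platelet-type chemokine that binds heparin, lay at 365, 317 and 272 CPM in Ccr2-negative cells and at 78.3, 79.9 and 98.8 CPM in Ccr2-positive cells (log2 difference 1.90 ± 0.083 (SE), adjusted p = 1e-26). The platelet genes Ppbp and Itga2b were at or under 0.686 CPM in every Ccr2-negative library. Igf1, insulin-like growth factor, lay at 60.8, 79 and 49 CPM in Ccr2-negative cells and at 18.8, 14.4 and 17.8 CPM in Ccr2-positive cells (log2 difference 1.89 ± 0.14 (SE), adjusted p = 5.01e-17). The groups did not overlap for Pf4 or Igf1, as for 20.4% of all genes tested. Gas6, which bridges dying cells to the receptor Mertk, had 104, 91.2 and 66 CPM without Ccr2 and 31, 19.9 and 30.3 CPM with it (log2 difference 1.71 ± 0.12 (SE), adjusted p = 3.71e-18). Apoe (ENSMUSG00000002985) differed less in ratio, with 29671, 28547 and 23125 CPM in Ccr2-negative and 14206, 13094 and 13394 CPM in Ccr2-positive cells (log2 difference 0.97 ± 0.058 (SE), adjusted p = 1.54e-20). Among 14 chemokines tested 8 rose and 3 fell, with a median log2 difference of 0.55 against 0.0028 over all genes tested. Ccl12, a monocyte attractant of mice, lay at 220.1, 152 and 338 CPM in Ccr2-negative and 65, 65.2 and 129 CPM in Ccr2-positive cells. It was highest in library 3 in both classes, and the classes did not overlap. Ccl3 and Ccl4, which attract leukocytes, were higher by 0.55 ± 0.065 and 0.55 ± 0.061 on the log2 scale, calls lost without the block and, for Ccl3, with DESeq2. The 3 chemokines that fell were Ccl5, Ccl6 and Ccl9. Of 13 cytokines 7 rose and none fell, Il1b, Tnf, Pdgfa and Pdgfb among them.

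Surface and uptake genes followed. Vcam1 (ENSMUSG00000027962), an adhesion molecule that binds integrins of lymphocytes, had the largest positive difference of the genes named by rank. It lay at 48.5, 94.1 and 70.1 CPM in Ccr2-negative cells and at 10.3, 14 and 17.3 CPM in Ccr2-positive cells (log2 difference 2.36 ± 0.14 (SE), adjusted p = 3.67e-21). Detection in thinned cells was 5.66, 9.61 and 9.66% without Ccr2 and 0.794, 2.09 and 1.89% with it, so Vcam1 was found in a minority of cells of either class. Stab1, a scavenger receptor for modified lipoproteins and cell debris, had 215, 255 and 169 CPM in Ccr2-negative cells and 78.3, 79.9 and 58.6 CPM in Ccr2-positive cells (log2 difference 1.54 ± 0.079 (SE), adjusted p = 1.95e-23). Fcrls, an Fc receptor-like gene known from mouse microglia, was low in both classes, at 48.2, 41.4 and 36.2 CPM in Ccr2-negative and 10.3, 11.8 and 5.75 CPM in Ccr2-positive cells (log2 difference 2.12 ± 0.17 (SE), adjusted p = 1.05e-15). C5ar1, the receptor for the complement fragment C5a, lay at 242, 226 and 167 CPM in Ccr2-negative and 106, 73.6 and 79 CPM in Ccr2-positive cells (log2 difference 1.29 ± 0.081 (SE), adjusted p = 1.69e-19). Of 16 scavenging genes 7 rose and 3 fell, and of 26 genes listed for resident macrophages 15 rose and 1, the tetraspanin Cd9, fell (log2 difference -0.63 ± 0.066). The median difference of the resident list was 0.29. Adgre1 itself was only slightly higher without Ccr2, with 535, 526 and 439.7 CPM against 395, 394 and 428 CPM in Ccr2-positive cells (log2 difference 0.29 ± 0.063 (SE), adjusted p = 0.000397), and did not pass with DESeq2, without the block or without library 2. Cx3cr1 lay at 625, 647 and 542 CPM in Ccr2-negative and 592, 596 and 542 CPM in Ccr2-positive cells and did not pass the test (log2 difference 0.051 ± 0.057 (SE), adjusted p = 0.676), and its sign turned when cells were thinned or held to 1% C1q. Both are markers of resident cells by label, and they separated the classes far less than the secreted factors.

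Genes of iron and heme handling that passed the test were higher without Ccr2, 6 of 14 with none lower, and of 15 lipid genes 6 were higher and 2 lower. Slc40a1, which encodes ferroportin, the only known exporter of iron from cells, lay at 34.7, 71.2 and 22.6 CPM in Ccr2-negative cells and 8.12, 14.4 and 2.09 CPM in Ccr2-positive cells (log2 difference 2.33 ± 0.17 (SE), adjusted p = 1.13e-16). Hmox1, which opens the heme ring, lay at 101, 132 and 125 CPM in Ccr2-negative and 35.8, 72.1 and 58.6 CPM in Ccr2-positive cells (log2 difference 1.11 ± 0.095 (SE), adjusted p = 2.54e-14). Abca1, which loads cholesterol onto apolipoproteins, was higher by 1.23 ± 0.13 and Trem2, a lipid-sensing receptor, by 0.75 ± 0.10 on the log2 scale. Of 24 lysosomal genes 13 rose and 2 fell. Cd63, a tetraspanin of late endosomes, lay at 560.0, 498 and 433 CPM in Ccr2-negative and 165, 147 and 226 CPM in Ccr2-positive cells (log2 difference 1.48 ± 0.081 (SE), adjusted p = 4.28e-22).

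Transcription factors of macrophages were higher or did not pass the test, with 16 of 26 higher and none lower. Maf, which helps hold macrophages in their mature state, lay at 369, 437 and 311 CPM in Ccr2-negative and 206, 224 and 198 CPM in Ccr2-positive cells (log2 difference 0.81 ± 0.065 (SE), adjusted p = 2.63e-15). Klf2 and Runx1 were higher by 0.80 ± 0.063 and 0.71 ± 0.060. Of 27 immediate early genes, which respond within minutes and also to tissue digestion, 15 rose and none fell.

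Genes of monocyte-derived and dendritic cells were lower in Ccr2-negative cells. Of 21 monocyte-derived genes tested 19 fell and 1, Lyz2, rose (median log2 difference -0.73), and of 16 dendritic genes 9 fell and 2, Mgl2 and Irf8, rose (median -0.60). Cd209a (ENSMUSG00000031494), a lectin of monocyte-derived dendritic cells, differed most, with 8.00, 6.90 and 3.77 CPM in Ccr2-negative cells and 172, 129 and 48.1 CPM in Ccr2-positive cells (log2 difference -4.27 ± 0.13 (SE), adjusted p = 6.13e-34). Napsa, an aspartic protease, lay at 21.7, 23.5 and 23.8 CPM without Ccr2 and 209.7, 193 and 152 CPM with it (log2 difference -3.05 ± 0.10 (SE), adjusted p = 9.26e-33). S100a6 and S100a4, small calcium-binding proteins abundant in monocytes, had log2 differences of -2.87 ± 0.12 and -2.96 ± 0.13. Clec12a, an inhibitory lectin, lay in Ccr2-negative cells at 103, 119 and 105 CPM, against 333, 381 and 346 CPM in Ccr2-positive cells (log2 difference -1.71 ± 0.067 (SE), adjusted p = 8.33e-29). Itgax, the integrin CD11c, was lower (-1.20 ± 0.10), as was Mmp12, the elastase of macrophages, at 185, 169 and 245 CPM without Ccr2 and 345, 389 and 512 CPM with it. Of 18 cell cycle genes 8 fell and none rose, Mki67 with a log2 difference of -1.06 ± 0.23. Mki67 did not pass with DESeq2, without the block or without library 1. Among the 8, Mki67, Top2a, Stmn1, Birc5, Pclaf and Tubb5 summed to 237, 241 and 294 CPM without Ccr2. With Ccr2 these 6 summed to 399.6, 366 and 282 CPM, so their sum was not lower without Ccr2 in library 3. Of 92 ribosomal protein genes 79 fell and none rose (median -0.33). Ribosomal UMIs had a median share of 14.4%, 14.2% and 16.4% per cell without Ccr2 and of 18.1%, 18.1% and 19.0% with it.

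MHC class II was a feature of both classes. H2-Aa lay at 14154, 14728 and 14977 CPM in Ccr2-negative and 13802, 14237 and 14463 CPM in Ccr2-positive cells (log2 difference 0.028 ± 0.054 (SE), adjusted p = 0.833). Of 15 class II genes tested 1, the costimulator Cd86, rose and 5 fell: H2-DMb2, H2-Oa, H2-Ob, Ifi30 and Ciita, the master regulator of class II transcription.

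Transcripts of other cells moved with this contrast. All 6 endothelial markers were higher in Ccr2-negative cells, where they summed to 85.2 to 268 CPM, against 15.1 to 85.7 CPM in Ccr2-positive cells, and Plvap, Tm4sf1 and Fabp4, known from capillaries, were among the 15 genes named as higher. The neutrophil genes S100a8, S100a9 and Retnlg were higher too, although Ly6g was at 0. Klk1 and S100g were also among the 15 genes named as higher. Their levels in free RNA, from barcodes of up to 100 UMIs, averaged 114 and 282 CPM. In Ccr2-negative cells they averaged 58.3 and 75.8 CPM, and the classes overlapped for both. In cells of at least 1% C1q, 15 of the 15 genes named as higher and 13 of the 15 named as lower were called in the same direction, Plvap included (log2 difference 2.36); Cd209a was not tested there, and Clec10a did not pass (-0.25). There Pf4 differed by 1.80, Vcam1 by 2.26, Igf1 by 1.80, Stab1 by 1.36, Apoe by 0.87 and Napsa by -2.99. DESeq2 called 432 genes in all, and Fabp4, Igfbp5, Plvap, S100g and Tm4sf1 were not among them; Igfbp5 and Plvap were not called without the block either.

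**Figure D2:**
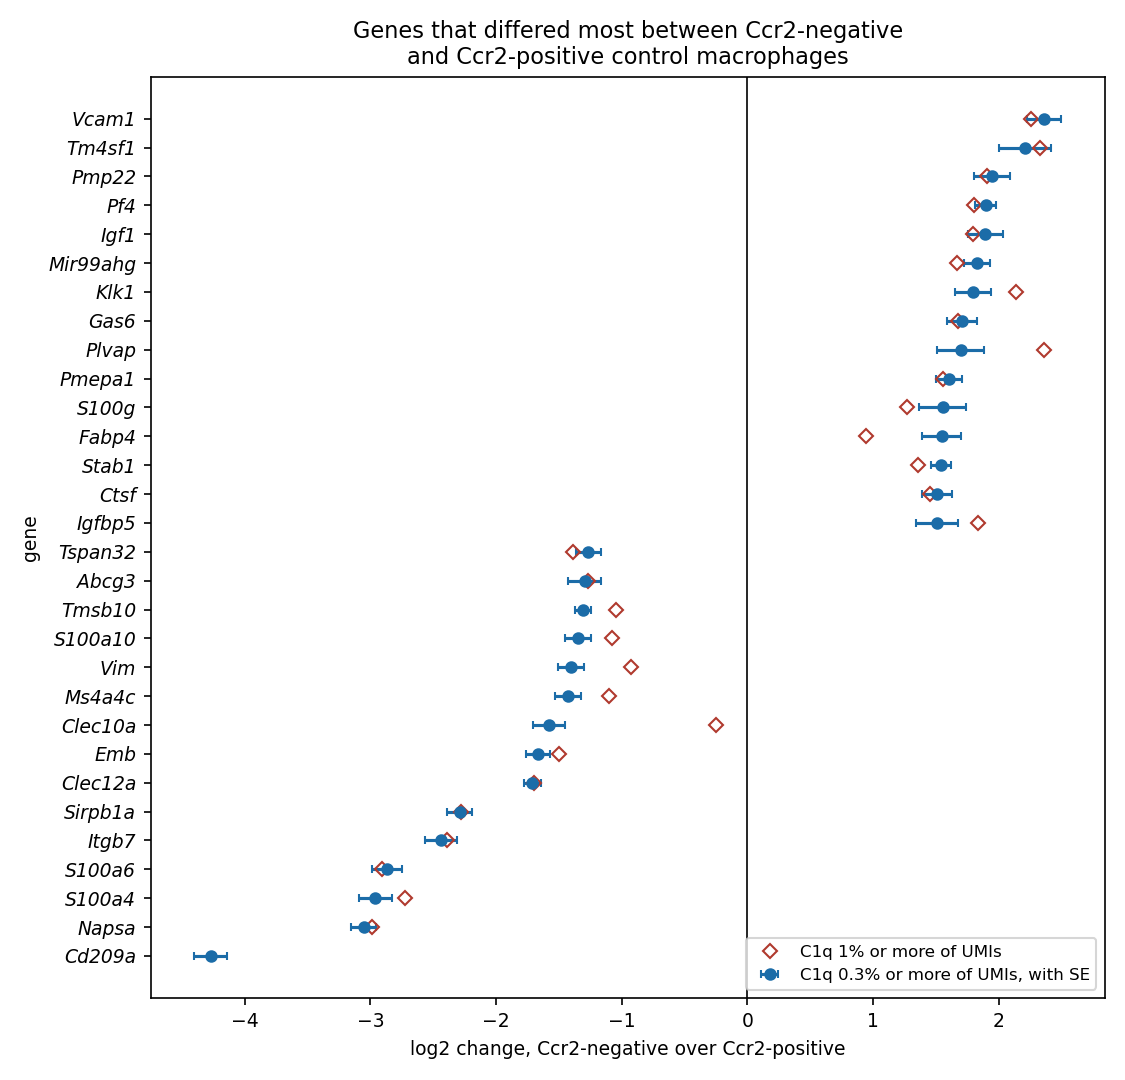
Log2 difference ± SE of Ccr2-negative against Ccr2-positive control macrophages for the 15 genes named as higher and the 15 named as lower (filled points, 3 libraries a class); open diamonds give the same in cells with at least 1% C1q. Vcam1 has the largest positive and Cd209a the largest negative difference, and the 29 diamonds lie on the same side of 0 as the points (Cd209a has none).

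Levels of Apoe and Napsa changed stepwise with the number of Ccr2 molecules, but not those of every named gene. Over cells with 0, 1, 2 to 3 and 4 or more Ccr2 UMIs, Apoe lay at 29671, 18154, 15639.8 and 11426 CPM in library 1, 28547, 18320.2, 14113 and 10877 CPM in library 2 and 23125, 16182, 13871 and 11527 CPM in library 3. Napsa went the other way, at 21.7, 124, 171 and 275 CPM in library 1, 23.5, 67.9, 172 and 244 CPM in library 2 and 23.8, 129, 130.0 and 181 CPM in library 3. For both genes, cells with a single Ccr2 molecule were thus between the cells with none and the cells with most. Pf4 dropped most between 0 and 1 Ccr2 UMI, at 365, 112, 81.8 and 60.2 CPM in library 1 and 317, 111, 63.3 and 78.0 CPM in library 2. In library 3, at 272, 159, 63.4 and 94.6 CPM, the next step was nearly as large. Pf4 rose again at 4 or more Ccr2 UMIs in libraries 2 and 3. S100a10 did not move in steps, at 56.2, 164, 74.6 and 178 CPM in library 1. Cx3cr1 stayed level at 625, 609.8, 616 and 568 CPM in library 1. Cells with 4 or more Ccr2 UMIs were also deeper, with a median of 4554, 4601 and 5441.5 UMIs, so depth and Ccr2 level cannot be told apart in these bins. When the classes were instead formed after thinning all cells to 1500 UMIs, 381 genes passed, 214 higher and 167 lower.

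**Figure D3:**
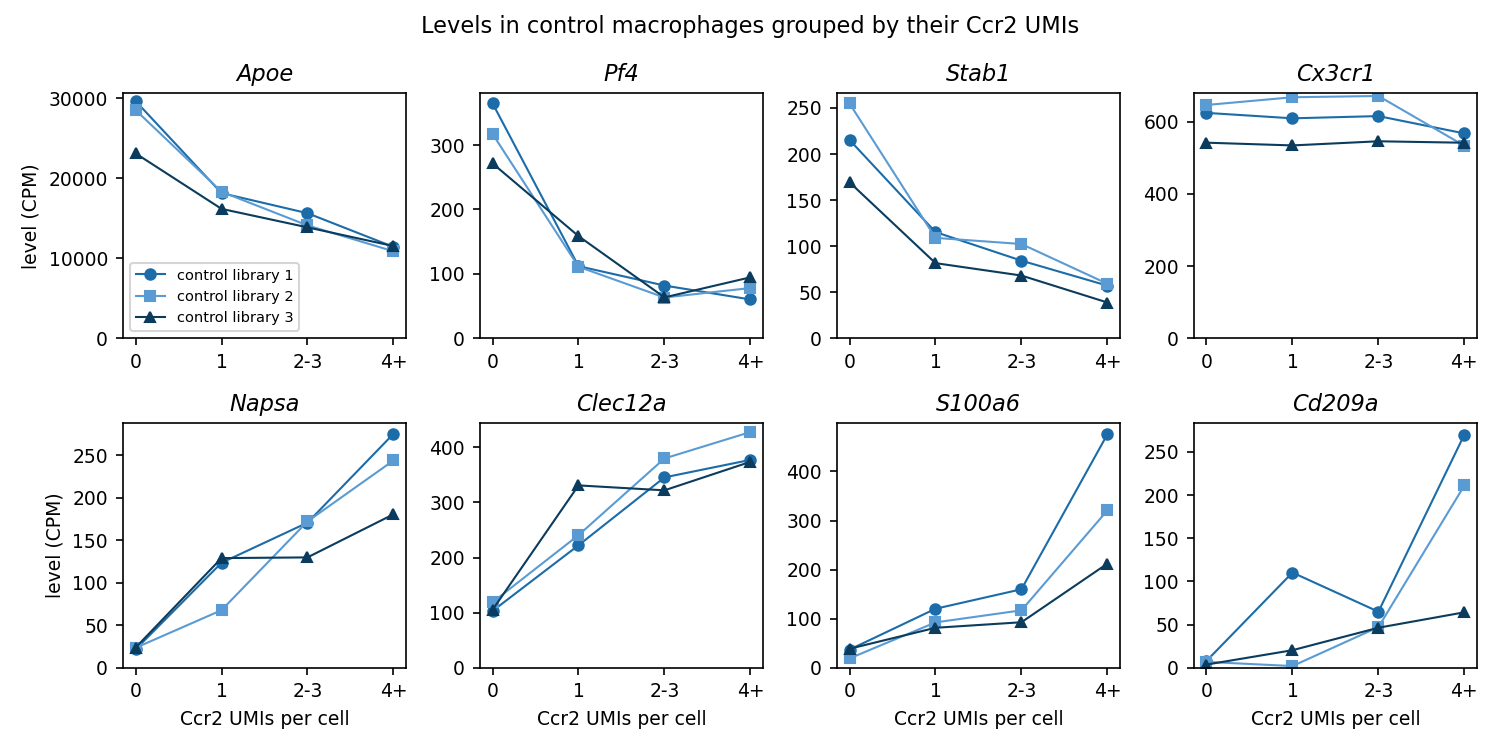
CPM of 8 genes in control macrophages with 0, 1, 2 to 3 and 4 or more Ccr2 UMIs, 1 line per control library. Apoe, Pf4 and Stab1 are highest at 0 Ccr2 UMIs, Napsa, Clec12a and S100a6 are lowest there, Cd209a is lowest there in libraries 1 and 3 but not in library 2, and Cx3cr1 is nearly level.

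The feature tables also held 6 antibody tags, although the labels of these libraries list none. The F4/80 tag averaged 106, 69.6 and 51 tag UMIs per Ccr2-negative cell, 107, 70.6 and 57.6 per Ccr2-positive cell, and 20.8, 13 and 9.82 per other filtered control cell. Both macrophage classes stood well above the other cells. The Ccr2-negative cells were below the Ccr2-positive ones in 3 of 3 libraries by a mean log2 difference of -0.070 ± 0.091 (SD; exact paired permutation test, two-sided, p = 0.25, the smallest that 3 libraries allow). The CD4 tag averaged 8.78, 6.26 and 5.96 UMIs in Ccr2-negative cells and 7.23, 5.11 and 4.90 in Ccr2-positive cells, a mean log2 difference of 0.29 ± 0.0073 (SD) with the same exact p of 0.25. The Cd4 transcript, chosen here because of its tag, ran the same way at 27.2, 25.1 and 27.5 CPM without Ccr2 and 6.65, 6.26 and 11 CPM with it (log2 difference 1.77 ± 0.20 (SE), adjusted p = 2.88e-10; 1.69 at 1% C1q), while the T cell transcripts Cd3d, Cd3g and Trac overlapped between the classes. The CD3 tag was lower in Ccr2-negative cells in 3 of 3 libraries, and CD8a and P2X7R, a purinergic receptor, were not of 1 sign.

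Within the Ccr2-negative class, the genes that varied most from cell to cell beyond counting noise were Apoe and Lyz2, followed by Cd74, chemokines and immediate early genes. The variance of Pearson residuals, which is near 1 for a gene that varies by counting alone, had a median of 1.04 over 3113 genes and was 14.8, 14.3 and 12.1 for Apoe and 12.2, 10.1 and 10.9 for Lyz2. It exceeded 2 in all 3 libraries for 52 genes. Jun, Fos, Hspa1a, Ccl4, Ccl3, Ccl2, Cxcl2, H2-Ab1 and Hmox1 were among the 20 that varied most.

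Clustering of the 2476 thinned cells, a description with no test, gave 4 large and 2 small groups, each with cells of every library. The largest, of 806 cells, led with Hmox1 (173 CPM, against 73 CPM in the other cells), Ccl2, Wfdc17, S100g, a tubule transcript (104 CPM, against 52.3 CPM), and Cd9; the lipoprotein lipase gene Lpl was also among its leading genes. The next, of 716 cells, led with Fos, Dusp1, Klf2, Rgs1 and Fosb, most of them immediate early genes. Another, of 542 cells, was high in Lyz2, Mgl2, Mrc1 and Stab1, but Fxyd2, a transcript of kidney tubules, led it, and the next, of 308 cells, led with S100g and Fxyd2, both from tubules, with Junb also high. The 2 small groups held 60 cells that led with Gzma, Trbc2 and Cd3g and 44 cells that led with Igfbp5, Plvap and Fabp4; these carried T cell, NK cell and endothelial transcripts together with C1q.

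The inducible heat shock transcripts Hspa1a and Hspa1b set the libraries apart more than any other gene. Hspa1a lay at 789, 3997 and 3273 CPM and Hspa1b at 93.0, 963 and 654 CPM, so control library 1 was low for both. In thinned cells Hspa1a was detected in 35.3, 82.7 and 79.8% of Ccr2-negative macrophages and in 1.11, 36.6 and 28.8% of T cells, so library 1 was low in T cells as well. Among 2446 genes of at least 50 CPM these alone differed by 4-fold or more between 1 library and the mean of the others. The 2 genes encode nearly the same protein, and reads of one may be counted for the other, so their sum was used. Their promoters are also nearly one sequence, which is shown for that reason: 149 of the 150 bases before the start are the same (RefSeq, GRCm38.p6; Hspa1a chr17:34972157-34972306 and Hspa1b chr17:34959239-34959388, both minus strand, printed 5' to 3' of the gene).
Hspa1a: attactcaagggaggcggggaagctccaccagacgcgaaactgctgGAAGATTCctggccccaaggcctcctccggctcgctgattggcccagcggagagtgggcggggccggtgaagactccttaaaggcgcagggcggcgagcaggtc
Hspa1b: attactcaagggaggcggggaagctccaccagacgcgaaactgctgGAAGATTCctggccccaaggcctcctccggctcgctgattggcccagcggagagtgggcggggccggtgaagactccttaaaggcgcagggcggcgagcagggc
The capitals mark the match to the heat shock element, searched as GAANNTTC and TTCNNGAA on both strands; 7.73% of 32851 RefSeq promoter windows of this length hold such a match. A match is a description of the letters only.

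After thinning, the cells of each library were ranked by the sum of Hspa1a and Hspa1b and cut into 3 parts, as equal as ties allowed, of which the highest and the lowest were compared; Hspa1a and Hspa1b themselves were left out of the test. High cells numbered 281, 240 and 169 and low cells 674, 295 and 220, since 61.6% of the cells of library 1 had no such UMI. Of 4566 genes tested 60 were higher in high cells (1.31%) and 20 lower (0.438%), together 1.75%. The immediate early genes moved with it, with 21 of 22 tested higher and none lower (median log2 difference 0.93, against -0.0026 over all genes). Jun had 5412, 5797 and 5266 CPM in high cells and 2960.4, 1792 and 2097 CPM in low cells (log2 difference 1.36 ± 0.086 (SE), adjusted p = 8.19e-14). Fos, its partner in the AP-1 factor, had 2389, 2569 and 2686 CPM in high cells and 1268, 800.0 and 1100.0 CPM in low cells (log2 difference 1.35 ± 0.093 (SE), adjusted p = 5.44e-13). High cells exceeded low cells for both genes in every library, by less in library 1, with few Hspa1a and Hspa1b molecules, than in the others. High cells held more than 1, 10 and 8 Hspa1a and Hspa1b UMIs, and low cells up to 0, 4 and 3. The parts were therefore not alike between libraries. Dusp1, a phosphatase of stress kinases, Klf2 and Zfp36, which destabilises cytokine mRNAs, were higher by 1.11 ± 0.11, 1.12 ± 0.11 and 1.14 ± 0.11. Of 12 other heat shock genes 4 rose and none fell, Hsp90aa1 by 1.05 ± 0.12, Dnaja1 by 0.89 ± 0.14 and Hspa8 by 0.34 ± 0.081, the other being Dnajb1. Ccl3 and Ccl4 were higher by 0.97 ± 0.13 and 0.80 ± 0.11. The lower genes included Egfl7, Meis2 and Plvap, and the endothelial markers summed to 3.94 to 97.3 CPM in high cells and 179 to 209 CPM in low cells. In cells of at least 1% C1q the 10 genes named as higher were all called in the same direction (Jun 1.27, Fos 1.31), and of the 10 named as lower 2 were tested and neither was called. Hspa8 lost its call with library totals, without the block and without any 1 library, Ccl3 and Ccl4 without the block, and Plvap without library 2.

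The next split was made in the same way on the sum of H2-Aa, H2-Ab1, H2-Eb1 and Cd74, since class II is a main product of these cells and the cells varied in it. Promoters of class II genes hold a Y box, read by the factor NF-Y, and the windows of 2 of the 4 genes are shown for it (RefSeq, GRCm38.p6; H2-Aa chr17:34287824-34287973, minus strand, and H2-Eb1 chr17:34305717-34305866, plus strand, printed 5' to 3' of the gene).
H2-Aa: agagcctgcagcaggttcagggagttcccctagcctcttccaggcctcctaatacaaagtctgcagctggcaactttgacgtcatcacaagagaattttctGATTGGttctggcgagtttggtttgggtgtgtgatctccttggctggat
H2-Eb1: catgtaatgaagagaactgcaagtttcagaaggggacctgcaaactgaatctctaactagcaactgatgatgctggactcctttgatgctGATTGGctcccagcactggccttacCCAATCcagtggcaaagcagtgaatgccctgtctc
The capitals mark GATTGG on either strand, of which H2-Aa holds 1 match and H2-Eb1 holds 2; 10.9% of the windows of this length hold at least 1.

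The parts were cut at 125 to 130 and 173 to 176 UMIs of the 1500 per cell, and 364, 260 and 196 high cells were compared with 368, 268 and 198 low cells. The high cells were higher for the rest of the class II machinery, for class I and for lysosomal proteases. Of 4653 genes tested 223 were higher (4.79%) and 125 lower (2.69%), together 7.48%. H2-DMb1, which with H2-DMa forms the molecule that loads peptides onto class II, had 1619, 1533 and 1667 CPM in high and 789.9, 871 and 808 CPM in low cells (log2 difference 1.15 ± 0.080 (SE), adjusted p = 1.44e-08). H2-DMa was higher by 1.07 ± 0.085. Ctss lay at 3945, 4344 and 4235 CPM in high cells and 2649, 2664 and 2468 CPM in low cells (log2 difference 0.87 ± 0.067 (SE), adjusted p = 3.31e-08). Cd83, which keeps class II at the cell surface, lay at 212, 141 and 194 CPM in high and 87, 94.5 and 80.8 CPM in low cells (log2 difference 1.25 ± 0.17 (SE), adjusted p = 3.18e-05). Of the tested members 6 of 7 class II genes, 7 of 14 class I genes and 13 of 22 lysosomal genes rose and none fell, with medians of 0.38 for class I and 0.47 for the lysosome, against -0.015 over all genes. Class I genes H2-D1 and H2-K1 were higher by 0.71 ± 0.067 and 0.60 ± 0.070, the interferon gamma receptor chains Ifngr1 and Ifngr2 by 0.64 ± 0.10 and 0.77 ± 0.15, and Ciita by 0.46 ± 0.13. Of 7 Fc receptor genes 6 rose and 1 fell, with Fcgr1 and Fcgr4, which bind IgG, higher by 0.68 ± 0.14 and 0.74 ± 0.11 and Fcrls the one that fell. Ctsh, a lysosomal cathepsin, was higher by 0.84 ± 0.077. Adgre1 and Cx3cr1 were higher by 0.57 ± 0.11 and 0.33 ± 0.091. At 1% C1q these were 0.32 for Adgre1, still called, and 0.24 for Cx3cr1, not called (edgeR adjusted p = 0.146), while Fcgr1 (0.42) and Ifngr2 (0.45) were called. Cx3cr1 also lost its call with library totals, without the block, without doublet-like barcodes and without library 1 or 2, and Ciita with library totals, without the block and without any 1 library.

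Igf1, Pf4, Stab1 and Fcrls, described above for the comparison with Ccr2-positive cells, which used the same Ccr2-negative cells, were lower where class II was high. Igf1 lay at 51.3, 28.2 and 40.8 CPM in high cells and 79.7, 144 and 60.6 CPM in low cells (log2 difference -1.01 ± 0.28 (SE), adjusted p = 0.0273). Pf4 lay at 275, 249 and 238 CPM in high cells and 498, 415 and 327 CPM in low cells (log2 difference -0.54 ± 0.11 (SE), adjusted p = 0.0038). Stab1 and Fcrls had log2 differences of -0.57 ± 0.13 and -1.06 ± 0.29. At 1% C1q these 4 differences were -1.07, -0.70, -0.52 and -1.47, all called. Without library 2 Igf1, Stab1 and Fcrls were not called (-0.42, -0.45 and -0.72), nor was Pf4 without library 1 (-0.44). The largest negative differences were of other cells' genes. Plvap had 0 counts in all high cells and 151 in low cells, at least 49.5-fold lower against a floor of 3 counts over the group, and S100a9 0 and 94 counts, at least 30.8-fold lower. The endothelial markers summed to 5.13 to 6.80 CPM in high and 195 to 476 CPM in low cells, the neutrophil markers to 22 to 34 CPM in high and 152 to 284 CPM in low cells, and the T cell markers to 15.4 to 37.4 CPM in high and 139 to 246 CPM in low cells. At 1% C1q 133 genes were higher and 73 lower; of the 10 genes named as higher 9 were tested there and 8 called, and the 10 named as lower had too few counts to be tested. With library totals in place of TMM scaling, all genes shifted by -0.20 in the median, and 108 genes were higher and 431 lower. The F4/80 tag averaged 91.5, 66.3 and 47.8 UMIs in high cells and 123.5, 76.8 and 55.1 in low cells, opposite to the Adgre1 transcript (lower in 3 of 3 libraries, exact p = 0.25, the smallest possible).

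**Figure D4:**
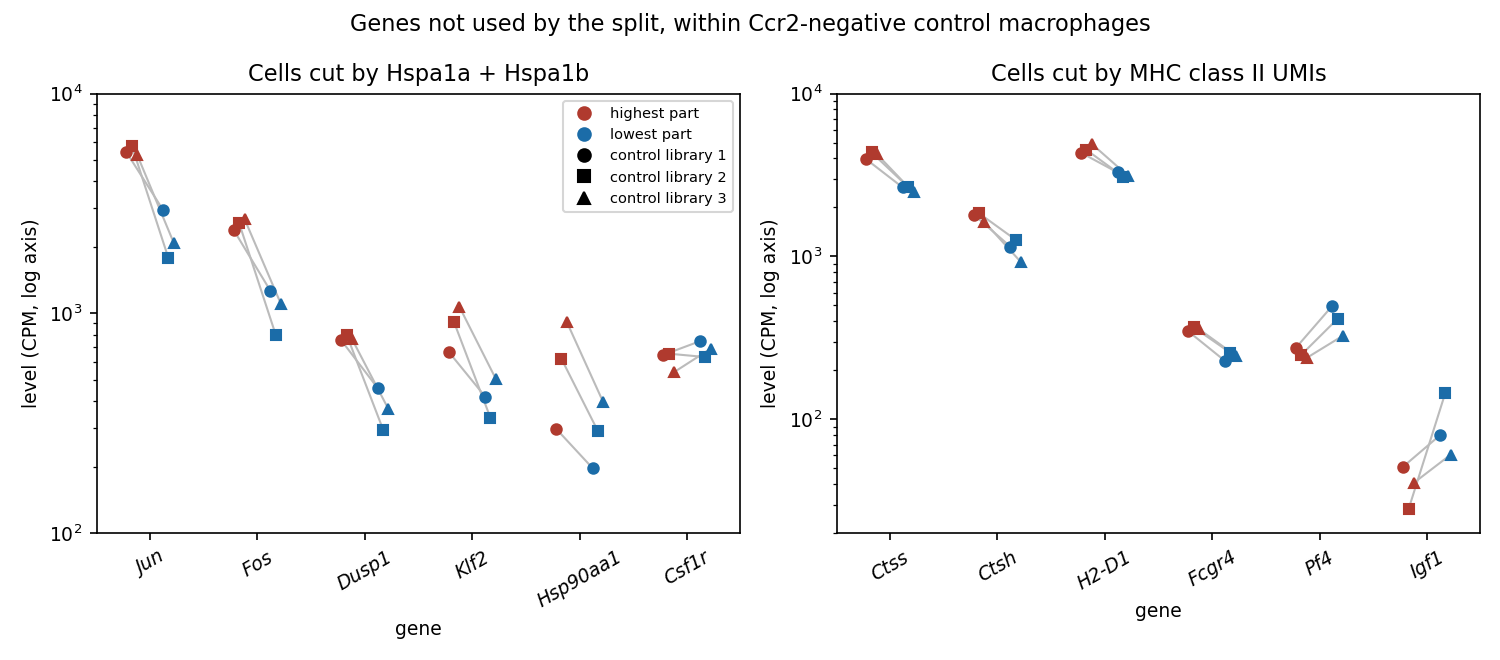
CPM on a log axis in Ccr2-negative macrophages of the control kidneys, in the highest part (red) left of the lowest part (blue), 1 point per library. Left, cells cut by Hspa1a and Hspa1b, with Jun, Fos, Dusp1, Klf2 and Hsp90aa1 higher in high cells; right, cells cut by MHC class II, with Ctss, Ctsh, H2-D1 and Fcgr4 higher and Pf4 and Igf1 lower in high cells.

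The last division was by perivascular-type transcripts. Cells with at least 1 UMI of Mrc1, Lyve1, Folr2, Cd163, Cbr2 or Pf4 numbered 559, 404 and 272, and cells with none 536, 387 and 318; since the other 4 genes were near 0, this was in effect a division by Mrc1 and Pf4. Of 5838 genes tested 32 were higher (0.548%) and 56 lower (0.959%) in cells with them, together 1.51%. Fcrls had 58.4, 72.6 and 53.9 CPM with and 27.4, 15.5 and 23.1 CPM without them (log2 difference 1.43 ± 0.25 (SE), adjusted p = 0.000731), and Trem2 130.0, 149 and 56.4 CPM with and 52.2, 75.8 and 35.6 CPM without them (log2 difference 1.06 ± 0.17 (SE), adjusted p = 0.000255). Mgl2, a galactose-binding lectin, was abundant in both, at 738, 492 and 623 CPM with and 443, 293 and 382 CPM without them (log2 difference 0.71 ± 0.074 (SE), adjusted p = 1.15e-07). Slc40a1, Abca1, Vcam1, Ccl12, Stab1 and Apoe were higher by 1.19 ± 0.25, 1.12 ± 0.22, 0.88 ± 0.22, 0.89 ± 0.12, 0.51 ± 0.10 and 0.37 ± 0.031. Mmp12 was lower, at 145, 116 and 157 CPM with and 215, 241 and 270.4 CPM without them (log2 difference -0.79 ± 0.12 (SE), adjusted p = 9.9e-05). The endothelial markers summed to 24.5 to 72.6 CPM with and 103 to 270.0 CPM without these transcripts. At 1% C1q the 10 genes named as higher were all called, and of the 10 named as lower 4 were tested and Klk1 and Mmp12 called. Without the library block 19 genes passed, and Slc40a1, Vcam1, Ccl12 and Stab1 were not among them. Slc40a1 and Vcam1 (0.46) also lost their calls without library 2, and Abca1 without library 1. When cells were divided by Mrc1 alone, Fcrls (0.83), Slc40a1 (0.41), Abca1 (0.71) and Ccl12 (0.37) were not called, and by Pf4 alone Abca1 (0.63) and Vcam1 (0.59) were not. Trem2, Mgl2, Apoe and Mmp12 were called in each of these fits.

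In rhabdomyolysis kidneys the same rule found 386, 608 and 331 cells, 38.1%, 39.7% and 22% of the filtered cells. They met the same C1q threshold as the control cells, and more of the resident genes were lower than higher in them. They were deeper, with a median of 5527, 4681.5 and 6396 UMIs, against 3420, 3374 and 3861 UMIs in control cells. Of 9751 genes 1719 were higher (17.6%) and 1691 lower (17.3%), together 35%, and the groups did not overlap for 50% of all genes; a single call therefore says little about a gene. The control cells here are the Ccr2-negative cells of the comparison with Ccr2-positive cells, so the 2 comparisons are not independent of each other. Markers of other cells moved with the injury: of 7 classical monocyte markers tested, Ccr2 aside, 5 rose, with a sum of 387 to 559 CPM in rhabdomyolysis and 42.6 to 57.6 CPM in control cells, and of 6 neutrophil markers tested 5 rose, with a sum of 510.4 to 784 CPM in rhabdomyolysis and 56.6 to 79.9 CPM in control cells. Chil3 alone held 357, 279 and 217 CPM of the classical monocyte sum in rhabdomyolysis, against 0.229, 0 and 0 CPM in control cells. Other markers of that list did not rise. Ly6c2 lay at 0.789, 3.71 and 3.61 CPM in rhabdomyolysis and 6.86, 1.88 and 1.13 CPM in control cells. Ms4a4c lay at 24.1, 21.7 and 21.3 CPM in rhabdomyolysis and 30.4, 33.2 and 31.7 CPM in control cells. Hemoglobin transcripts were high in rhabdomyolysis library 2 alone, where Hbb-bs reached 2548 CPM. The part of these transcripts in the results below was not tested.

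Most genes of resident cells that passed the test were lower, and 4 were higher. Adgre1 lay at 131, 71.2 and 174 CPM in rhabdomyolysis cells and 535, 526 and 439.7 CPM in control cells (log2 difference -1.92 ± 0.28 (SE), adjusted p = 0.00142), and Gpr34, a lysophospholipid receptor of microglia, at 4.34, 4.64 and 1.61 CPM in rhabdomyolysis and 62.9, 80.6 and 48.3 CPM in control cells (log2 difference -4.04 ± 0.35 (SE), adjusted p = 0.000115). Cx3cr1 varied widely after injury, at 53.2, 9.59 and 196 CPM in rhabdomyolysis cells and 625, 647 and 542 CPM in control cells (log2 difference -2.76 ± 0.76 (SE), adjusted p = 0.0203), and lost its call without control library 1, 2 or 3 or without rhabdomyolysis library 1. Tmem176a, a membrane protein of antigen-presenting cells, lay at 248, 179.5 and 196 CPM in rhabdomyolysis and 1435, 1289.8 and 1228 CPM in control cells (log2 difference -2.57 ± 0.19 (SE), adjusted p = 6.36e-05). Maf was lower (log2 difference -1.86 ± 0.25). The 4 that were higher were the efferocytosis receptor Mertk by 1.68 ± 0.58, Trem2 by 0.89 ± 0.28, Cd63 by 0.79 ± 0.27 and Cd9 by 1.35 ± 0.32; the groups overlapped for Mertk and Cd63. Each of the 4 lost its call without control library 1 or 2 or rhabdomyolysis library 1, Mertk, Trem2 and Cd63 also with library totals and without control library 3, and Mertk also without rhabdomyolysis library 2 (0.90). Of 26 resident genes 15 fell and 4 rose (median -0.81, against -0.041 over all genes), and of 16 class II genes 10 fell and 2 rose (median -1.94). Over all genes tested 17.3% were lower and 17.6% higher, so neither count of higher genes exceeded the share over all genes.

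The genes that were higher in Ccr2-negative than in Ccr2-positive control cells did not move as 1 group after injury. Igf1 lay at 5.13, 0.929 and 9.63 CPM in rhabdomyolysis cells and 60.8, 79 and 49 CPM in control cells (log2 difference -3.56 ± 0.49 (SE), adjusted p = 0.00105), and Slc40a1 and Gas6 were lower too (log2 differences -3.27 ± 0.58 and -1.20 ± 0.33), Gas6 not without control library 1 or 2 or rhabdomyolysis library 1. Pf4 was higher, at 1702, 539 and 886 CPM in rhabdomyolysis and 365, 317 and 272 CPM in control cells (log2 difference 1.82 ± 0.37 (SE), adjusted p = 0.00599). Ppbp, a chemokine of platelets, was higher as well, at 38.7, 4.64 and 5.22 CPM in rhabdomyolysis and 0.229, 0 and 0.377 CPM in control cells (adjusted p = 0.00629), and was highest in the library with the most Pf4; its part in the Pf4 result was not tested. Stab1 lay at 242, 163 and 281 CPM in rhabdomyolysis and 215, 255 and 169 CPM in control cells and did not pass (log2 difference 0.19 ± 0.23 (SE), adjusted p = 0.551), nor did Vcam1 (0.18 ± 0.24), Fcrls (-0.29 ± 0.34) or Hmox1 (0.69 ± 0.25). Hmox1 passed with DESeq2, with the replicate block, with no filter and without rhabdomyolysis library 1 or 2, and Stab1 without rhabdomyolysis library 2 (0.45). Apoe was lower (-0.86 ± 0.29, adjusted p = 0.0442). As for Cx3cr1, this call was lost without control library 1, 2 or 3 or without rhabdomyolysis library 1. Large increases were seen for Msr1, a scavenger receptor, by 2.95 ± 0.19, and Ccr1, a receptor of inflammatory chemokines, by 4.30 ± 0.31. Cebpb, a factor of inflammatory myeloid cells, rose by 3.55 ± 0.28. In control cells Msr1 and Cebpb were also higher without Ccr2, whereas Ccr1 was lower. The count of called genes ran between 1766 and 4928 as single libraries were left out, with 1880 without control library 1, 1766 without control library 2 and 4928 without rhabdomyolysis library 2. Since C1q, not origin, chose the cells, resident cells that changed and cells that arrived and acquired C1q cannot be told apart.

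**Figure D5:**
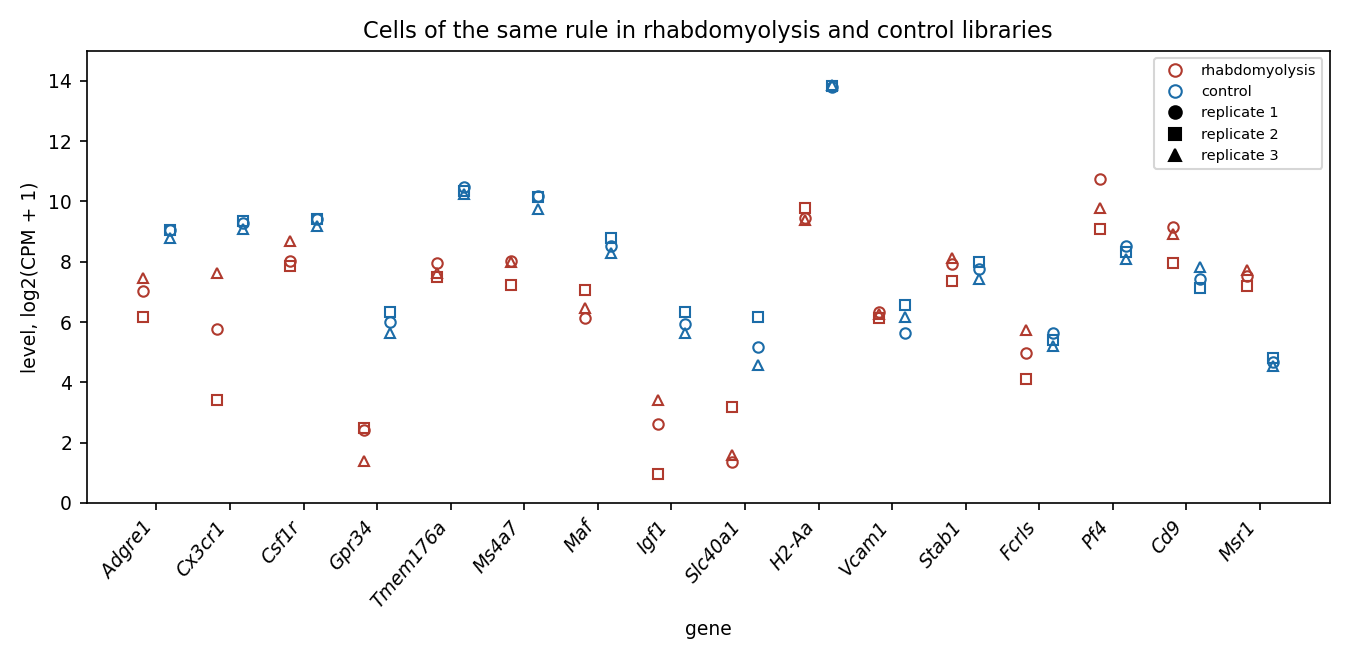
Levels as log2(CPM + 1) of resident program genes in cells of the same rule, rhabdomyolysis (red) left of control (blue), 1 point per library. Adgre1, Gpr34, Tmem176a, Maf, Igf1 and H2-Aa are lower, Vcam1, Stab1 and Fcrls overlap or lie close, and Pf4, Cd9 and Msr1 are higher in rhabdomyolysis cells.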

How the data were processed

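Libraries were made with the Single Cell 3' kit and sequenced for mRNA, per the labels; the matrices came from Cell Ranger 4.0, per the file headers, on the mm10 build, per the submitters' processing notes. The authors deposited raw UMI counts per gene and barcode, with 6 antibody tags as counts in the same tables. Barcodes were filtered as stated in the report. Counts were summed per library and class and tested with edgeR 4.0.16 in R 4.3.3 (TMM scaling, filterByExpr, quasi-likelihood test, Benjamini-Hochberg adjustment over all genes tested). The library was a block in comparisons within control kidneys and not in the comparison with rhabdomyolysis, for which the labels give no pairing. Deviations from the group means correlated at 0.208, 0.283 and 0.105 between same-numbered libraries. Between the other pairs of libraries the correlations ran from -0.294 to 0.080. With 3 libraries a group this check cannot establish a pairing. The fit with the replicate number as a block is given under the processing alternatives. Genes used by a split were left out of its test. Genes of the rule that chose the cells stayed in the fits and in the counts of genes tested and called. They were left out of the genes named by rank and of the list counts. Splits used cells thinned to 1500 UMIs. The genes named by rank were the 15 (comparison by Ccr2) or 10 (others) of largest difference in each direction with adjusted p under 0.05, a mean log2 CPM of at least 5 and 1 direction in all libraries (for rhabdomyolysis, groups that do not overlap), leaving out mitochondrial and ribosomal genes; others came from fixed gene lists, and Cd4 was added after its values were seen. The cells, lists and tests were chosen with earlier results of these data known. Doublets were scored against simulated ones, kept, and left out as an alternative (21 of the Ccr2-negative cells). In simulated counts the Ccr2 comparison recovered 90% of 100 genes changed 2-fold and 100% of 100 changed 4-fold, over 9654 genes. Other alternatives were DESeq2 1.42.0, library totals, no filter on low counts, single libraries left out, 2 or more Ccr2 UMIs, and at least 1% C1q, which for the splits within the class was added after the data were seen, as were splits by Mrc1 or Pf4 alone. Tables were handled with Python 3.11.15 and pandas 2.3.3, and cells were clustered with leidenalg 0.10.2. A few items are not reported here. Promoters are from RefSeq and matched all the genes printed.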

Additional observations from a re-analysis of the deposited data

How the results depend on the processing

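Counts of called genes, and their balance of higher and lower, depended on the fit, while the sign of the genes named and listed in the text seldom turned. Against 1384 genes in the Ccr2 comparison, DESeq2 called 432 (186 higher, 246 lower), a fit without the replicate block 556, cells of at least 1% C1q 902 and thinned cells 381; single libraries left out gave 882 to 1106, lowest without library 1. With library totals the Ccr2 comparison had 725 genes higher and 644 lower, against 671 and 713. For the class II split, against 348 genes (223 higher, 125 lower), library totals called 539 (108 higher, 431 lower), at least 1% C1q 206, and single libraries left out 253 to 395. For the Hspa1 split, against 80, at least 1% C1q gave 51 and single libraries left out 60 to 63; library totals gave 54 higher and 38 lower and no filter 58 higher and 52 lower. For the perivascular-type split, against 88, no filter gave 140, no replicate block 19, Pf4 alone 37 and single libraries left out 68 to 86. For rhabdomyolysis, against 3410, single libraries left out gave 1766 to 4928, and the replicate block, which pairs same-numbered libraries, 3394; library totals shifted all genes by -0.13 in the median. The mean share of Ccr2-negative cells was 27.8% at 1% C1q, against 32.2%. Of the genes named and listed in the text, 679 values for the Ccr2 comparison kept direction and call and 20 lost the call, against 278 and 22 for the class II split, 207 and 24 for the Hspa1 split, 203 and 58 for the perivascular-type split and 524 and 31 for rhabdomyolysis. The sign turned for Cx3cr1 in the Ccr2 comparison (-0.046 at 1% C1q, -0.039 thinned), for Hmox1 split by Mrc1 alone (-0.13), for Vcam1 after rhabdomyolysis (-0.062 without control library 1, 0.41 without control library 2, the range over libraries left out) and for Fcrls after rhabdomyolysis (0.12 without rhabdomyolysis library 2, -0.73 without rhabdomyolysis library 3). None of these was called as reported, except Hmox1. The tags CD8a and P2X7R turned to 0.031 and 0.028 as shares of all tag UMIs and ran from -0.062 to 0.023 and from -0.056 to 0.032 as single libraries were left out. The cause of these changes was not tested. Transcripts under a few CPM rest on few counts, and a gene absent from a cell may have been missed at this depth.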

Other observations

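Other gene groups were counted between the Ccr2-negative and Ccr2-positive classes of the control kidney. Over all genes tested 6.94% were higher and 7.37% lower without Ccr2. Of 14 C-type lectin genes tested 2, Mrc1 and Mgl2, were higher and 7 lower without Ccr2, among them Clec12a, Clec10a and Clec9a. Of 17 genes of the TREM, SIRP and CD300 receptor families 3 were higher, Trem2, Lilrb4a and Lilra5, and 7 lower. Of 15 Toll-like receptor and adaptor genes 4 were higher, Tlr2, Tlr7, Cd14 and Ly96, and 1, Tlr1, lower, the latter near the share over all genes. Of 23 adhesion and matrix genes 7 were higher and 9 lower. Mmp13, a collagenase, was higher (log2 difference 0.88 ± 0.073, edgeR adjusted p = 1.15e-14), while Mmp12 was lower (-1.07 ± 0.064, adjusted p = 1.52e-20). Of 16 glycolysis genes 4, Hk2, Gpi1, Gapdh and Eno1, were lower and none higher. Of 27 type I interferon response genes 2 were higher, near the share over all genes, and 5 lower.

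Mir99ahg, a long noncoding RNA that hosts microRNAs, lay at 99, 120.1 and 95.4 CPM in Ccr2-negative cells and at 26.6, 30.6 and 31.4 CPM in Ccr2-positive cells (log2 difference 1.83 ± 0.10 (SE), adjusted p = 1.13e-21), with no overlap. Pmepa1, an inhibitor of TGF-beta signalling, lay at 147, 138 and 113 CPM in Ccr2-negative cells and at 45.8, 33.9 and 53.3 CPM in Ccr2-positive cells (log2 difference 1.60 ± 0.10 (SE), adjusted p = 3.8e-19).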
